A study of Zea mays with 6 samples.

Results

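The genes fad7 (GRMZM2G128971) and fad8 (GRMZM2G074401) encode the plastid omega-3 fatty acid desaturases of maize, and their transcripts were followed in mature pollen after a transient heat treatment of the parent plants. They are 2 of the 39625 gene models in the deposited expression table and were picked by identifier, with their values in these libraries already known. The heat contrast of both genes is therefore given as a description, with no test. All plants were of the inbred line B73. Control plants had days of 25 °C and nights of 21 °C. Heated plants had days of 35 °C and nights of 25 °C for 48 h, applied at the tetrad stage of pollen development, when the products of meiosis are still joined. Air humidity was 60% for both groups. All plants then returned to the greenhouse, and RNA was taken from pollen once it had matured, so no library shows pollen during the heat itself. Each group had 3 libraries that the labels call biological replicates. Whether a replicate is 1 plant or a pool, and how old the plants were, the sources used here do not say.

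Omega-3 desaturases put the last of the double bonds into polyunsaturated fatty acids and so turn linoleic acid into alpha-linolenic acid. FAD7 and FAD8 do this in plastids, on the galactolipids and other lipids of the plastid membranes, while FAD3 does so in the endoplasmic reticulum. The omega-6 desaturases FAD2, in the endoplasmic reticulum, and FAD6, in the plastid, make the linoleic acid that they use. Alpha-linolenic acid is also the precursor of jasmonate. In Arabidopsis, mutants that lack FAD3, FAD7 and FAD8 together cannot make jasmonate and are male sterile, and the FAD8 transcript accumulates in the cold.

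Expression values were TPM, in which read numbers are corrected for gene length and every library is scaled to one total, as the authors deposited them. Between 19086616 and 28640667 reads were recovered per library from these values, and every control library was deeper than every heat library. The pollen label was checked against named markers. Of 20 pollen markers 14 had a mean above 1 TPM, and together they held 48878 to 51172 TPM in control libraries and 49400 to 52584 TPM in heat libraries, led by the male gametophyte gene mgs1. Of 25 names on a list for green leaf 1 had a mean above 1 TPM (psat1, matched by its name but not known to be a photosynthesis gene), 8 were at 0 in every library, and the list summed to 3.30 to 4.82 TPM in control libraries and 3.82 to 5.15 TPM in heat. The list for anther wall and tapetum had 5 genes, of which 2 had a mean above 1 TPM and ocl4 was at 0; it summed to 2.66 to 3.38 TPM in control libraries and 4.02 to 4.49 TPM in heat. The higher sum came from ms32 (GRMZM2G163233), at 1.62 ± 0.222 TPM in control libraries and 3.17 ± 0.111 TPM in heat libraries (SD, n = 3 each), while ms26 (GRMZM2G091822) was lower, at 1.25 ± 0.0572 against 0.886 ± 0.262 TPM. The list's part in the values of fad7 and fad8 was not tested. In bulk pollen, fewer grains that carry a transcript and less transcript per grain cannot be told apart. The sample sheets place the 3 control libraries and heat replicate 3 on lanes 3, 4 and 5 of 1 flow cell, and heat replicates 1 and 2 on lanes 1 and 2. A fit with the lane as a covariate therefore sets heat replicate 3 alone against the controls.

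Transcripts of fad7 were scarce in control pollen and scarcer after heat. The gene had 1.70, 1.77 and 1.73 TPM in control replicates 1, 2 and 3. It had 0.497, 1.03 and 0.731 TPM in heat replicates 1, 2 and 3. The control libraries lay within a narrow band and each was above every heat library, among which replicate 1 was lowest and replicate 2 highest. The means were 1.73 ± 0.0352 TPM in control libraries and 0.753 ± 0.268 TPM in heat (SD, n = 3 each), so the heat mean was 0.435 times the control mean. On the log2(TPM + 1) scale the difference was -0.65 (SE 0.14, from the limma fit across all tested genes). That scale understates the change of a gene this low: the difference was -1.15 (SE 0.26) with a pseudocount of 0.1, -0.23 (SE 0.05) with a pseudocount of 5 and -1.24 (SE 0.25) with limma-voom on recovered reads.

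Few reads stood behind the fad7 values. The gene model of 2161 bases had 65, 56 and 48 reads in control replicates 1, 2 and 3, against 13, 27 and 19 reads in heat replicates 1, 2 and 3. Exact 95% Poisson intervals, which cover counting error only, ran from 0.265 to 0.850 TPM in heat replicate 1, from 0.680 to 1.50 TPM in heat replicate 2 and from 0.440 to 1.14 TPM in heat replicate 3. In control replicates 1, 2 and 3 they ran from 1.31 to 2.16, from 1.34 to 2.30 and from 1.27 to 2.29 TPM. Each of these control intervals was far wider than the spread of the control values. The closeness of the controls therefore does not show a steady level. The intervals of heat replicates 1 and 3 ended below all control intervals, whereas that of heat replicate 2 overlapped them. The intervals of the heat libraries overlapped each other, which does not by itself settle whether their order is real. That order rests on few reads and was not tested. Heat replicate 3 shared its lanes with the controls and lay at 0.731 TPM against 1.70 to 1.77 TPM there. The log2 difference adjusted for lane, which rests on that heat library alone, was -0.66 (SE 0.20). The gene entered the fit because 4 libraries reached 1 TPM, the 3 controls and heat replicate 2.

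Transcripts of fad8 were more abundant and were also lower after heat, by a smaller factor. The gene had 14.5, 12.9 and 14.2 TPM in control replicates 1, 2 and 3. It had 11.6, 9.23 and 9.81 TPM in heat replicates 1, 2 and 3. The groups did not overlap, and heat replicate 1, the lowest heat library for fad7, was the highest for fad8. The means were 13.9 ± 0.846 TPM in control libraries and 10.2 ± 1.21 TPM in heat (SD, n = 3 each), a heat mean 0.733 times the control mean and a log2(TPM + 1) difference of -0.42 (SE 0.11). The gene model of 1459 bases had 376, 277 and 267 reads in control and 204, 163 and 172 reads in heat. The exact Poisson interval of heat replicate 1, from 10.0 to 13.2 TPM, overlapped those of all controls, of which that of control replicate 2 was lowest at 11.5 to 14.6 TPM. Heat replicate 2, at 7.87 to 10.8 TPM, and heat replicate 3, at 8.40 to 11.4 TPM, ended below the control intervals. The log2 difference adjusted for lane was -0.46 (SE 0.16), again from heat replicate 3 alone against the controls.

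**Figure D1:**
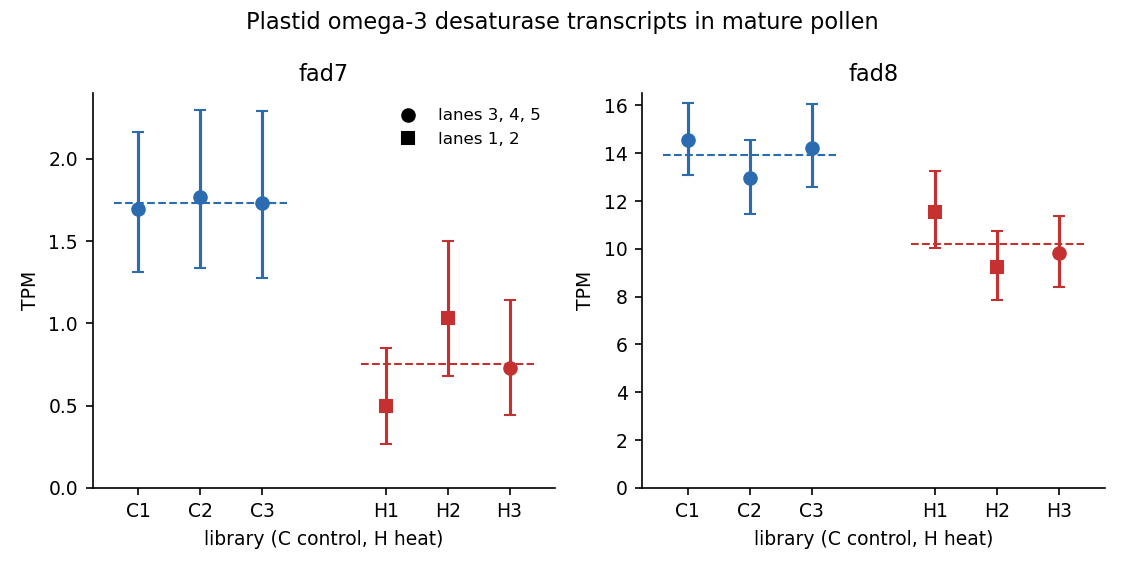
TPM of fad7 (left) and fad8 (right) in each library, control in blue and heat in red, with exact 95% Poisson counting intervals as bars and the group mean as a dashed line; circles mark libraries on lanes 3, 4 and 5 and squares those on lanes 1 and 2. For fad7 the controls sit at 1.70 to 1.77 TPM and the heat libraries at 0.497 to 1.03 TPM, and for fad8 at 12.9 to 14.5 and 9.23 to 11.6 TPM.

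Both genes thus had each heat library below each control library. The same held for 13.3% of the 8615 tested genes, and since the genes were chosen with this contrast known, nothing is read from their share. Among the tested genes 241 (2.80%) had a more negative log2 difference than fad7 and 556 (6.45%) than fad8, where the median of all tested genes was 0.04. By mean level, 10.0% of the tested genes lay below fad7 and 70.7% below fad8.

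The balance between both desaturase transcripts differed by library. TPM is per length, so levels of different genes in 1 library can be set side by side. The ratio of fad8 to fad7 was 8.57, 7.33 and 8.24 in control replicates 1, 2 and 3. It was 23.2, 8.94 and 13.4 in heat replicates 1, 2 and 3. Every heat library was above every control library, but heat replicate 2 lay close to the highest control. The share of fad7 in the summed level was 11.1% ± 0.814 in control and 7.04% ± 2.97 in heat (SD, n = 3 each). The sum of both was 15.6 ± 0.812 TPM in control libraries and 10.9 ± 0.962 TPM in heat, with 14.7 TPM in the lowest control and 12.0 TPM in the highest heat library. Most of the difference in the sum was in fad8, the more abundant gene, while the proportional difference was larger for fad7. On the log2 scale fad7 differed more than fad8 in the fits with a pseudocount of 1 or 0.1 and with limma-voom, and less with a pseudocount of 5 (-0.23 against -0.32). Without heat replicate 1 the differences were -0.54 (SE 0.14) for fad7 and -0.50 (SE 0.11) for fad8, and the mean fad8 to fad7 ratio in heat was 11.2 in place of 15.2.

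**Figure D2:**
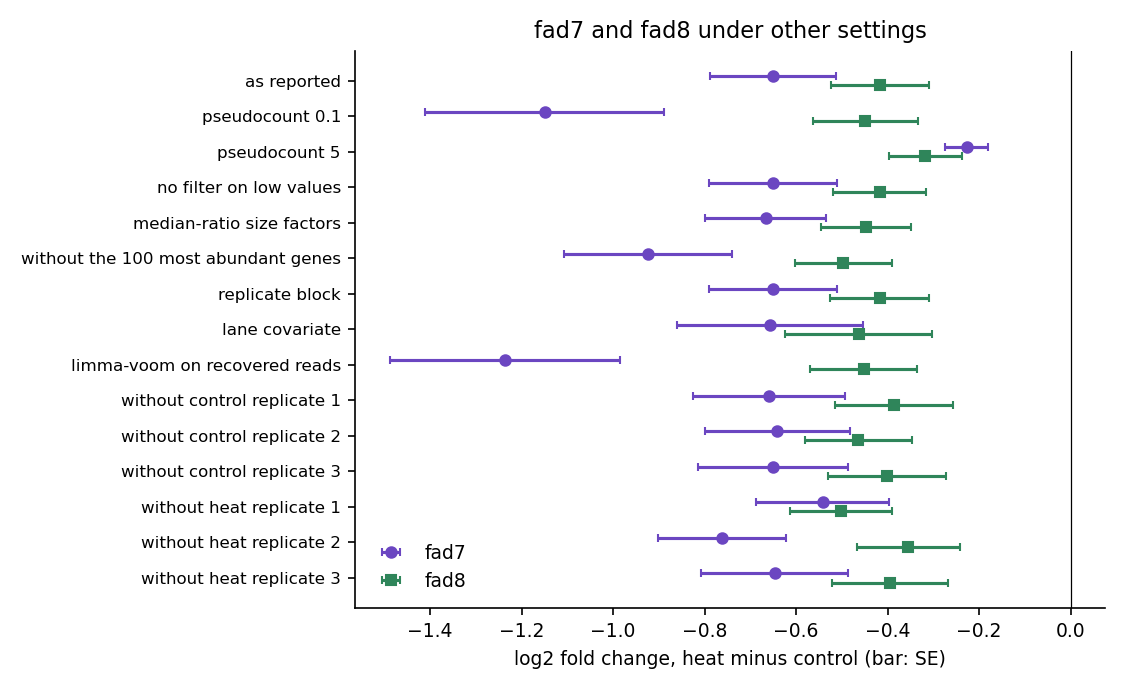
Log2 fold change of fad7 (circles) and fad8 (squares), heat minus control, with the SE as bars, as reported with log2(TPM + 1) and under each other setting (limma-voom works on log2 reads scaled by library size). Every value is negative, which most settings had to give because each heat library lay below each control library. The values of fad7 run from -1.24 to -0.23 and those of fad8 from -0.50 to -0.32.

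Other desaturase genes were examined next, to see whether the lower level was shared. The names took 7 further genes, of which 5 reached the filter of 1 TPM in 3 libraries. Limma called 1 of these 5 higher and 0 lower; limma-voom also called 1, and the unadjusted p was under 0.05 for 1; across the table limma called 20.2% of the tested genes, 13% higher and 7.15% lower. The median log2 difference of the 5 was 0.07. None of the omega-6 genes passed. FAD2 (GRMZM2G056252) was the most abundant, with 71.3, 69.5 and 69.5 TPM in control libraries and 69.3, 68.0 and 68.5 TPM in heat replicates 1, 2 and 3. The heat libraries lay below the controls by a narrow margin, and the log2 difference was -0.03 (SE 0.07, limma adjusted p = 0.798). The second model, fad2 (GRMZM2G064701), had 24.2, 23.1 and 23.1 TPM in control libraries and 22.7, 25.1 and 26.4 TPM in heat libraries (log2 difference 0.07, SE 0.09, limma adjusted p = 0.637). These models could share reads if their sequences are close, since how reads with several matches were treated is not stated; the same limit holds between fad7 and fad8.

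The plastid omega-6 gene fad6 (GRMZM2G078569) works directly upstream of fad7 and fad8. It had 9.24, 8.38 and 8.15 TPM in control libraries and 8.80, 10.3 and 8.69 TPM in heat replicates 1, 2 and 3. The groups overlapped, and the gene did not pass (log2 difference 0.10, SE 0.11, limma adjusted p = 0.580). The summed level of fad7 and fad8 was 1.76, 1.76 and 1.96 times that of fad6 in control replicates 1, 2 and 3, and 1.37, 0.992 and 1.21 times in heat replicates 1, 2 and 3. In control pollen the plastid omega-3 transcripts thus exceeded the omega-6 transcript in each library, whereas in heat replicate 2 both were at about the same level.

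SAD1 (GRMZM5G852502), whose product the gene table does not give, was the gene called higher. It had 22.7, 22.3 and 22.2 TPM in control libraries and 25.7, 30.7 and 26.2 TPM in heat libraries (log2 fold change 0.28, SE 0.09, limma adjusted p = 0.0459). The call held in 4 of 14 alternatives, with a limma adjusted p of 0.0356 without heat replicate 1 and 0.165 without heat replicate 2. It was lost with the lane as a covariate (log2 fold change 0.22, SE 0.14), where heat replicate 3 alone stood for heat. The name pattern also took adss1 (GRMZM2G119852), a name used for adenylosuccinate synthetase and not for a desaturase, at 2.52 ± 0.452 TPM in control libraries and 2.41 ± 0.265 TPM in heat (SD, n = 3 each; limma adjusted p = 0.869). Both genes below the filter, sad1 (GRMZM2G014376) and SLD5 (GRMZM2G164325), had under 0.4 TPM in every library. The gene table does not give their products either, so they may not be desaturases.

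By control level the order was FAD2, fad2, SAD1, fad8, fad6, adss1, fad7, sad1 and SLD5. The libraries of fad2 and SAD1 lay close together in control, at 23.1 to 24.2 TPM against 22.2 to 22.7 TPM. After heat fad8, at 9.23 to 11.6 TPM, overlapped fad6, at 8.69 to 10.3 TPM. The level of fad8 was 7.33 to 23.2 times that of fad7 over the 6 libraries.

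**Figure D3:**
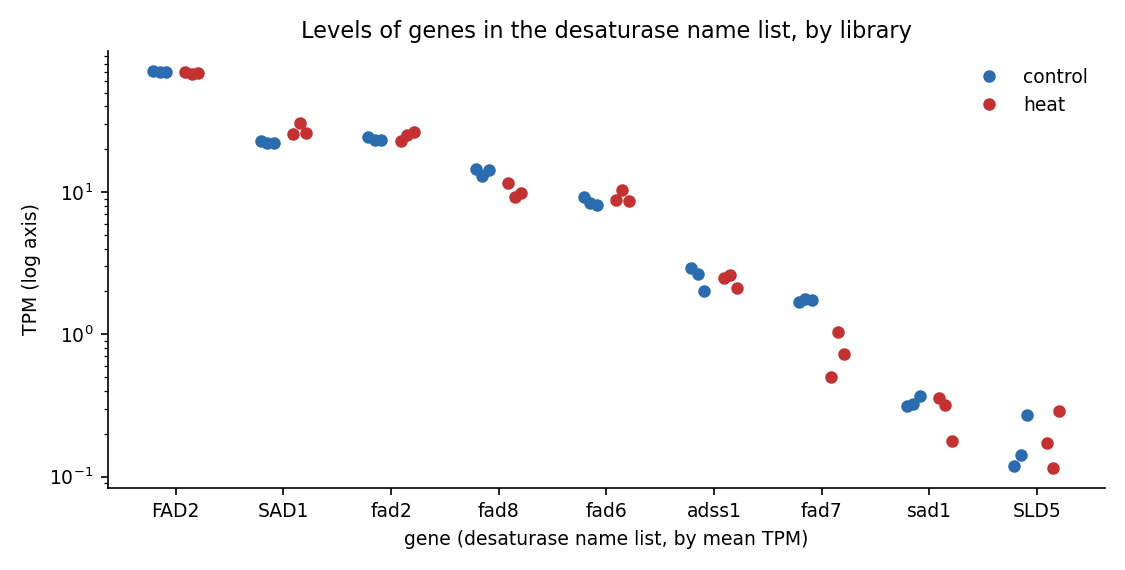
TPM on a log axis of the 9 genes taken by the desaturase name list, in order of mean level, each point 1 library (control blue, heat red). The heat points of fad8 (9.23 to 11.6 TPM) and fad7 (0.497 to 1.03 TPM) lie below the control points. Those of FAD2 also do, by a narrow margin (68.0 to 69.3 against 69.5 to 71.3 TPM). The heat points of fad2 and fad6 overlap the control points.

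Genes on either side of the omega-3 step gave 18 further tested genes from lists of fatty acid synthesis, lipid assembly and oxylipin synthesis. Over all lists, desaturases included and fad7 and fad8 left out, 23 genes were tested, of which limma called 6 higher and 0 lower, with a median log2 difference of 0.07. That is 26.1% of the 23, against 20.2% called over all tested genes, of which 13% were higher. One of the 6, gl1, entered the test through the heat libraries alone; without it 5 of 22 (22.7%) were called. Limma-voom also called 6, and the unadjusted p was under 0.05 for 7. Of 10 tested genes named for plastid fatty acid synthesis, 2 rose and 8 were not called, but 6 of these 10 carry the names pdh1, pdh2 or PDK1, whose products the gene table does not give and which may not belong to the pathway. FatB (GRMZM5G829544), an acyl-ACP thioesterase that releases saturated fatty acids from the plastid, rose from 35.0 ± 2.08 to 46.1 ± 3.67 TPM (SD, n = 3 each; log2 fold change 0.39, SE 0.09, limma adjusted p = 0.00715). Among the 14 alternatives the call was lost only with the lane as a covariate (0.34, SE 0.13), where heat replicate 3 alone stood for heat. One of the models named pdh2 (GRMZM2G043198) rose from 1.94 ± 0.436 to 2.97 ± 0.204 TPM, a log2 fold change of 0.44 (SE 0.14, limma adjusted p = 0.0370), a call that held in 6 of 14 alternatives. The acyl carrier protein genes acp (GRMZM2G175818) and ACP (GRMZM2G091715) and the acetyl-CoA carboxylase gene Acc-1 (GRMZM5G858094) stood at 0.758 to 1.76 TPM on average and were not called.

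Lipid assembly was thinly covered, with 3 of 11 named genes tested. DGAT1-2 (GRMZM2G169089), which makes triacylglycerol, had 2.08 ± 0.645 TPM in control libraries and 1.31 ± 0.214 TPM in heat (SD, n = 3 each). It did not pass (log2 difference -0.40, SE 0.16, limma adjusted p = 0.0999), and rested on single controls: it was called without control replicate 2 (-0.52, adjusted p = 0.0467), and without control replicate 1 the difference was -0.24 (adjusted p = 0.365). gl1 (GRMZM2G114642), a gene of the surface wax pathway, had 0.309 ± 0.126 TPM in control libraries and 1.33 ± 0.158 TPM in heat libraries, a log2 difference of 0.83 (SE 0.13). It reached the filter through the heat libraries alone and so had to differ, and its call supports nothing. gl8b (GRMZM2G087323), a reductase gene of fatty acid elongation, had 10.2 ± 0.578 and 9.56 ± 0.608 TPM and was not called (limma adjusted p = 0.614).

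Oxylipin synthesis uses the product of the omega-3 desaturases. Of 26 genes named for it 5 were tested, of which 2 rose and 3 were not called, where 20.2% of all tested genes were called. The allene oxide cyclase gene aoc2 (GRMZM2G415793) had 3.25, 3.03 and 3.97 TPM in control libraries and 4.87, 5.78 and 5.03 TPM in heat replicates 1, 2 and 3 (log2 fold change 0.50, SE 0.13, limma adjusted p = 0.0140). Its call was lost with the lane as a covariate (0.46, SE 0.19, adjusted p = 0.180), without control replicate 1 and without heat replicate 2. The reductase gene opr7 (GRMZM2G148281), of the later peroxisomal step of jasmonate synthesis, rose from 18.9 ± 2.03 to 26.5 ± 0.767 TPM (SD, n = 3 each). The log2 fold change was 0.47 (SE 0.10, limma adjusted p = 0.00389). This call was lost with the lane as a covariate (0.48, SE 0.14), which leaves heat replicate 3 alone against the controls. The genes opr8 (GRMZM2G082087) and aoc1 (GRMZM2G077316) were tested as well and not called. For opr8 the means were 7.70 ± 0.508 TPM in control libraries and 9.13 ± 0.964 TPM in heat (limma adjusted p = 0.196). For aoc1 they were 0.947 ± 0.143 and 1.01 ± 0.111 TPM (limma adjusted p = 0.844). Most genes named as lipoxygenases or allene oxide synthases were hardly detected. The names do not tell which of the lipoxygenases act in jasmonate synthesis. Of 15 lipoxygenase and allene oxide synthase names 13 had means under 0.1 TPM in both groups, and none of the 4 allene oxide synthase genes passed 0.0350 TPM in any library. The exceptions were lox12 (GRMZM2G106748), at 0.333 to 0.638 TPM in control libraries and 0.135 to 0.218 TPM in heat and below the filter, and lox4 (GRMZM2G109056), at 2.76 ± 0.231 and 3.30 ± 0.428 TPM, which was not called (limma adjusted p = 0.335).

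**Figure D4:**
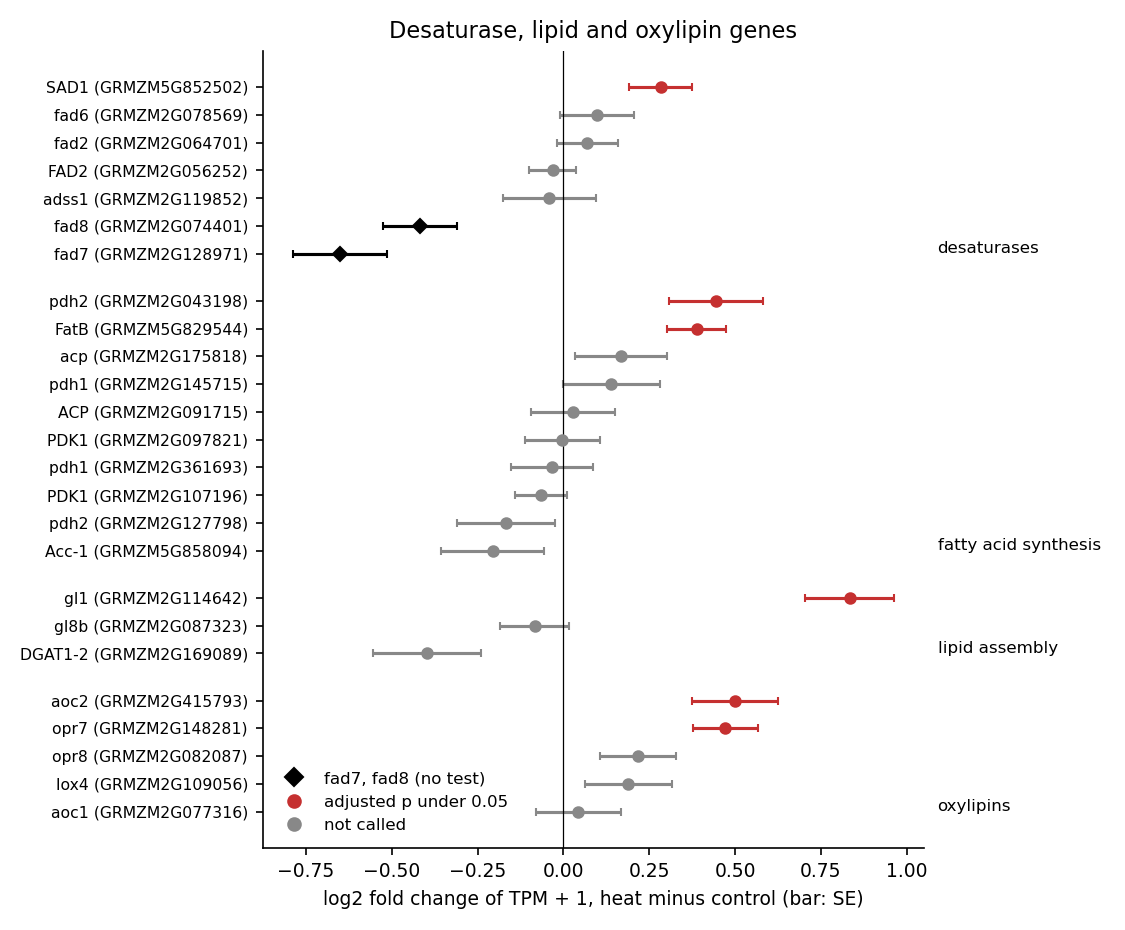
Log2 fold change of TPM + 1, heat minus control, with the SE as bars, for the tested genes of each list; black diamonds are fad7 and fad8, red points passed the test and grey points did not. The 6 red points lie to the right of 0, and fad7 (-0.65) and fad8 (-0.42) to the left, as does DGAT1-2 (-0.40), which lies below fad8 with a pseudocount of 0.1 (-0.60 against -0.45).

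Genes with the most similar library profiles were sought by the root mean square difference of log2(TPM + 1), each gene centred on its own mean, over the 6 libraries; no test applies to genes picked in this way. Nearest to fad7 was remorin (GRMZM2G004511), a gene named for a plasma membrane protein family, with a difference of 0.07, the smallest of all 8614 other tested genes. Its mean was 5.87 TPM in control libraries and 3.62 TPM in heat. AAE (GRMZM2G074759; 0.12), the small heat shock protein gene HSP18 (GRMZM2G404249; 0.13), PYL2 (GRMZM2G134731; 0.13), named for the abscisic acid receptors, and the histone gene his2b5 (GRMZM2G342515; 0.13) came next among named genes. Each of these but PYL2 had, like fad7, its lowest level in heat replicate 1, although the heat intervals of fad7 overlapped each other. Such a match follows from the choice by likeness over these libraries. HSP18 and PYL2 averaged 0.787 and 0.694 TPM in heat libraries, with 6 to 35 and 9 to 37 reads per library. Both reached the filter through the control libraries alone and so had to lie lower in heat.

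Nearest to fad8 among named genes was GNAT26 (GRMZM2G137961), with a root mean square difference of 0.03 and means of 6.94 TPM in control libraries and 5.13 TPM in heat. It was followed by sfp1 (GRMZM2G159632; 0.06), mTRF5 (GRMZM2G023257; 0.06), GT1 (GRMZM2G421491; 0.06) and IBP1 (GRMZM2G063151; 0.07). These genes shared with fad8 a control replicate 2 below the other controls. They were picked for likeness over these libraries, so such a match follows from the choice. The counting intervals of fad8 in the 3 control libraries overlapped each other. Among them sfp1 averaged 0.717 TPM in heat libraries, with 9 to 32 reads per library. It reached the filter through the control libraries alone and so had to lie lower in heat. By this measure the profiles of fad7 and fad8 were less alike. Their difference was 0.25, which put fad8 at rank 544 by likeness to fad7 and fad7 at rank 3225 by likeness to fad8. The measure takes in the size of a change as well as its pattern, on a scale that compresses fad7. With 13 to 65 reads per library for fad7, counting error adds to the difference. Unlike patterns of both genes are therefore not shown.

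**Figure D5:**
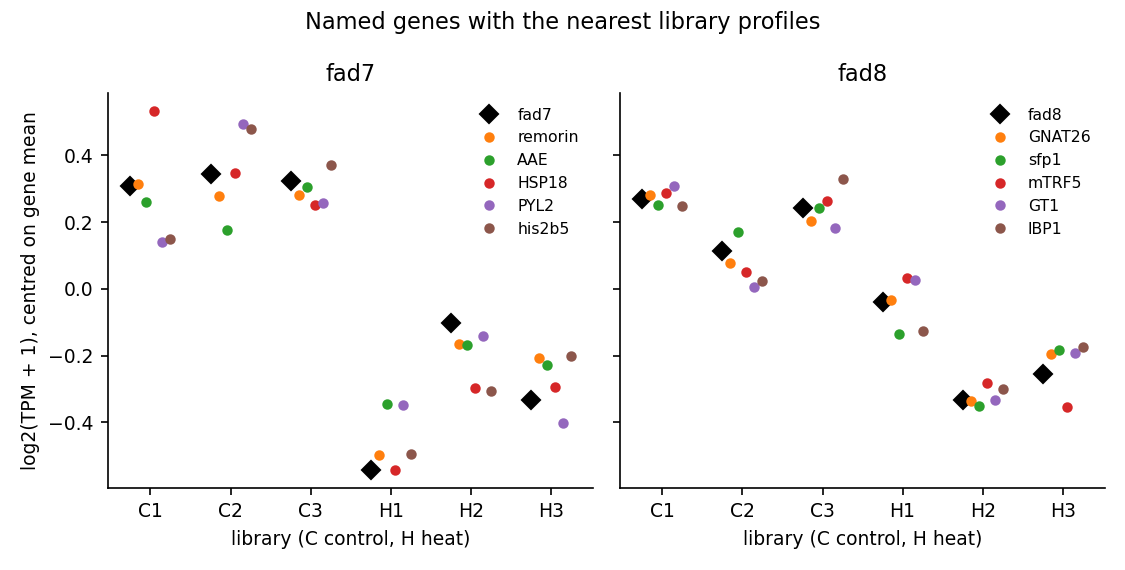
Log2(TPM + 1) centred on each gene's mean, by library, for fad7 (left) and fad8 (right) as black diamonds and for the 5 named genes nearest to each as coloured points. fad7 and the genes beside it other than PYL2 have their lowest point in heat replicate 1. For fad7 the counting intervals of the heat libraries overlap. fad8 has its lowest point in heat replicate 2.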

How the data were processed

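TPM values were used as the authors deposited them for 39625 gene models in 3 control and 3 heat libraries. The submitters' processing notes name the genome build B73 RefGen_v3 and the tools STAR 2.5.2a, featureCounts, Trimmomatic 0.35, DESeq2 and FastQC; what each did and the strand setting of the counting are not stated. Lane numbers were read from the deposited sample sheets. Whole reads were recovered from ratios of TPM between libraries for 24654 of 24654 gene models above 0 (tolerance 1e-05 reads). The smallest gene length that gave whole reads was taken. Where reads and length share a common factor, both came out too small, so library totals are lower bounds. No pair of libraries of a group agreed within sampling noise (smallest chi-square per degree of freedom 4.59). Names came from a RefSeq table of another assembly (Zm-B73-REFERENCE-NAM-5.0), which matched 19060 models, named 2758 and matched fad7 and fad8 to 1 gene each.

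Heat and control were compared on log2(TPM + 1) for the 8615 genes that reached 1 TPM in 3 or more libraries, with limma 3.58.1 in R 4.3.3 (trended variance, two-sided, Benjamini-Hochberg adjustment over all genes, threshold 0.05). The code for read recovery was tested on simulated data. The p-values weigh the difference between groups against the spread between libraries of a group. The variance of each gene was drawn toward a trend over all tested genes. What that spread stands for is not known, since whether a replicate is a single plant or a pool is not stated. The members and lists were chosen with earlier results of these data known. Other genes named are the tested desaturase names and the 5 named genes nearest in profile. In each list up to 3 rises and 3 falls past the threshold were also named, or else its most abundant gene. Further list genes (opr7 aside) such as DGAT1-2, gl8b, opr8, aoc1, lox4, lox12, acp, ACP and Acc-1 were added after their values were seen. A family defined by protein similarity was planned; it could not be made without protein sequences, and the name list stood in for it. Alternatives were other pseudocounts, filters and scalings, a replicate block, a lane covariate, single libraries left out and, added after seeing the data, limma-voom on recovered reads.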

Additional observations from a re-analysis of the deposited data

How the results depend on the processing

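The log2 differences of fad7 and fad8 stayed negative under all 14 alternatives. Since each heat library lay below each control library, that sign could have changed only with another scaling or limma-voom. For fad7, reported at -0.65, limma-voom gave -1.24, pseudocounts of 0.1 and 5 gave -1.15 and -0.23, and TPM rescaled after removal of the top 100 genes by level gave -0.92; a low gene is the more compressed the larger the pseudocount is against its level. With single libraries left out, fad7 ranged between -0.76 and -0.54 and fad8 between -0.50 and -0.35, the ends being set by heat replicates 1 and 2. The mean fad8 to fad7 ratio ran from 7.78 to 8.40 in control and from 11.2 to 18.3 in heat.

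Across the table, 1123 genes were higher and 616 lower. Median-ratio scaling gave 1043 higher and 722 lower. Without the 100 most abundant genes 894 were higher and 874 lower, so the excess of rises over falls depended on the scaling. No filter on low values gave 742 higher, and the lane covariate 435 higher and 219 lower; single libraries left out gave 813 to 1138 higher and 374 (without control replicate 1) to 682 lower, with 391 without control replicate 3. The single other desaturase name called higher, SAD1, became 0 with no filter, with median-ratio scaling, without the 100 most abundant genes, with the replicate block, with the lane covariate, and in 5 of the fits that left out a library (range 0 to 1). The 6 other lipid and oxylipin genes called higher became 1 with the lane covariate (gl1, which passed the filter through the heat libraries alone) and 3 to 6 with a library left out; the 0 lower became 1, DGAT1-2, without control replicate 2 (range 0 to 1). The 6 lipid and oxylipin genes called higher also became 4 with no filter, with median-ratio scaling and without the 100 most abundant genes. With the replicate block they became 5. The cause of these changes was not tested.

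Replicate numbers were not taken to pair the libraries, since they are not stated to pair plants. The correlations of same-numbered deviations were 0.12, 0.13 and -0.05. Those of unlike-numbered deviations ran from -0.25 to 0.16, so these values do not decide the question. With the replicate block the log2 difference was -0.65 (SE 0.14) for fad7 and -0.42 (SE 0.11) for fad8. The planned family by protein similarity and its stricter version were not run. Depth limits fad7, with 13 to 65 reads per library. Scalings moved the median log2 difference of all genes by less than 0.1.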

Other observations

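The gene models that neighbour fad7 and fad8 in the name table's assembly were examined as a further description of their surroundings. No annotated gene overlapped either of them there. Of the 3 matched models on each side of each gene, 1 of 6 beside fad7 and 1 of 6 beside fad8 reached the filter, and limma called 0 higher and 0 lower. Beside fad7, GRMZM2G015730 had 1.06 ± 0.214 TPM in control libraries and 1.58 ± 0.173 TPM in heat (SD, n = 3 each; log2 difference 0.33, SE 0.13, limma adjusted p = 0.0999, unadjusted p = 0.0263). Beside fad8, GRMZM2G114354 had 51.9 ± 2.68 and 55.8 ± 3.17 TPM (log2 difference 0.10, SE 0.08, limma adjusted p = 0.404).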
